A study of Mus musculus with 21 samples.

Results

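The long terminal repeats (LTRs) of intracisternal A particle (IAP) elements were followed in male mouse germ cells with and without Tex15. The deposited tables count reads per repeat name, and every name that begins with IAP and ends in neither -int nor _I was taken, which gave 10 of the 1217 repeat names: IAPLTR1_Mm, IAPLTR1a_Mm, IAPLTR2_Mm, IAPLTR2a, IAPLTR2b, IAPLTR3, IAPLTR4, IAPEY_LTR, IAPEY2_LTR and IAPEY3_LTR. A name pools all copies of a repeat, so no genome position belongs to a value, and a solitary LTR cannot be told from one that flanks a complete element.

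The cells were germ cells of embryos and pups with a mixed strain background, sorted for the fluorescence of an Oct4-GFP reporter, from testes of litters of heterozygous parents. Knockout cells (KO, Tex15-/-) and heterozygous cells (HT, Tex15+/-) were profiled at embryonic days 16.5 (E16.5) and 18.5 (E18.5) and after birth (D2.5, called day 2 in the design text). Wild-type cells (WT) were profiled at D2.5 as well, and the Oct4-GFP sort was common to all 7 groups of 3 biological replicates. The study asked how expression differs when Tex15 is missing.

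IAP elements are endogenous retroviruses that still move in the mouse genome. A complete copy has an internal part with the genes for gag and pol between a pair of LTRs, which hold the promoter and the polyadenylation signal, and many copies survive only as a solitary LTR. The DNA of fetal male germ cells loses most of its methylation and regains it before birth, and at young retrotransposons this is guided by piRNAs, small RNAs bound by PIWI proteins. TEX15, first known for its role in meiotic recombination, is also known as a factor of piRNA-guided silencing in these cells. IAPLTR1 and IAPLTR2 are the LTRs known to flank the internal sequence IAPEz-int, and the IAPEY names belong to a related branch.

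Table totals were 16661750 to 23353300 counts per library, gene totals 6063632 to 11884109, and repeat names took 41.9% to 69.4% of the counts. Tex15 itself had 2.90 to 3.72 CPM (counts scaled to the gene counts of a library) in KO cells at E16.5, against 888 to 1049 CPM in HT cells. At E18.5 it had 2.91 to 3.25 CPM in KO cells, against 741 to 804 CPM in HT cells, and at D2.5 15.9 to 23.6 CPM in KO cells, against 1764 to 2082 CPM in HT and 3541 to 4338 CPM in WT cells. HT replicate 1 at E16.5 and KO replicate 3 at D2.5 stood apart from the other libraries of their age on the first principal component of the genes. At E16.5 this component held 78.5% of the variance. Replicate 3 of HT and of KO cells lay at its other end (-44.1 and -60.6, against 95.9 for HT replicate 1). In bulk libraries fewer cells with a transcript and less transcript per cell cannot be told apart. Each IAP LTR name had at least 72 counts in every library, means of 273 counts (IAPLTR3) to 4042 counts (IAPLTR2_Mm), and all 10 passed the filter on low counts in every fit. Levels are compared between groups for 1 name at a time, since CPM is not scaled to the length or number of copies of a repeat.

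Summed over the 10 names, IAP LTR transcripts were higher in every KO library than in every control library of the same age. At E16.5 the summed level was 1442, 1530 and 1940 CPM in KO cells (replicates 1, 2 and 3, an order kept throughout), against 856, 1168 and 1416 CPM in HT cells. Within each genotype it rose in the order in which the E16.5 libraries lay along the first principal component of the genes. A link between the component and the LTR level was not tested. In CPM the gap was widest at E18.5, with 2628, 2480 and 2860 CPM in KO cells, against 1181, 1071 and 1306 CPM in HT cells. At D2.5 KO cells had 1895, 1888 and 2237 CPM, HT cells 990, 1215 and 1232 CPM, and WT cells 1143, 1072 and 982 CPM. HT and WT libraries overlapped. Scaled in the same way to the repeat counts of a library, the ranges also stayed apart, with summed levels of 1683 to 2074 in KO and 1037 to 1680 in HT cells at E16.5, 2095 to 2502 in KO and 1077 to 1451 in HT cells at E18.5, and 911 to 1078 in KO, 491 to 499 in HT and 453 to 511 in WT cells at D2.5.

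The names were then tested one by one. At E16.5 all 10 names had a log2 fold change above 0 (median 0.43, against 0.14 over all 1090 repeat names tested) and none passed edgeR's quasi-likelihood test at an adjusted p of 0.05, as was so for 0% of all names. An unadjusted p under 0.05 was reached by 3 of the 10 and by 67 of all names in edgeR, while DESeq2 called 1 of the 10 (0.183% of all names) and limma-voom 0. All 3 KO libraries lay above all 3 HT libraries for 3 of the 10 names, as was so for 12.9% of all names. The median of the 10 at this age was 0.28 without HT replicate 1 (0.13 over all names), 0.28 without KO replicate 3 (0.08) and 0.66 without HT replicate 3 (0.18). Gene totals set the scale of these values. With repeat totals as library size the median over all names lay no further from 0 than -0.03 at any age, and that of the 10 LTR names over HT was 0.89 at E18.5, against 0.30 for the E16.5 cells and 0.65 for those of D2.5.

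At E18.5 all 10 names rose in KO cells (edgeR), where 9.87% of all 1125 names tested were called higher. Their median log2 fold change was 1.12, against 0.18 over all names, and their range was 0.63 to 1.94. For all 10 the KO libraries lay above the HT libraries without overlap, which held for 17.1% of all names. Of the 6 IAP internal names, all 6 rose (median 1.34), and of the 92 tested LTR names of the RLTR kind 32 rose (median 0.38).

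At D2.5 the names that passed were 3, IAPLTR1_Mm, IAPLTR2a and IAPLTR2b, which rose in KO cells over HT cells (edgeR), where 1.17% of all 1110 names tested were called higher. The other 7 lay between -0.20 and 0.69 on the log2 scale. The median of the 10 was 0.43, against -0.18 over all names (0.17 and -0.28 without HT replicate 1), and 4 of the 10 had KO libraries above HT libraries without overlap, as did 3.06% of all names. Among the comparators 1 of 6 IAP internal names and 1 of 92 RLTR names rose. Set against WT cells, the same 3 names rose (edgeR), where 1.44% of all names were called higher, with a median of 0.46 for the 10 names and -0.11 for all names (0.25 and -0.19 without WT replicate 3), and 4 of the 10 had KO libraries above WT libraries without overlap, as did 4.86% of all names. Both comparisons use the same KO libraries, so they are not independent of each other.

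HT and WT cells at D2.5 gave no call for any of the 10 names, as for 0% of all names (edgeR), with log2 fold changes of -0.19 to 0.45. In the same test an unadjusted p under 0.05 was reached by 0 of the 10 and by 16 of the 1110 names, and limma-voom and DESeq2 called none of the 10.

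**Figure D1:**
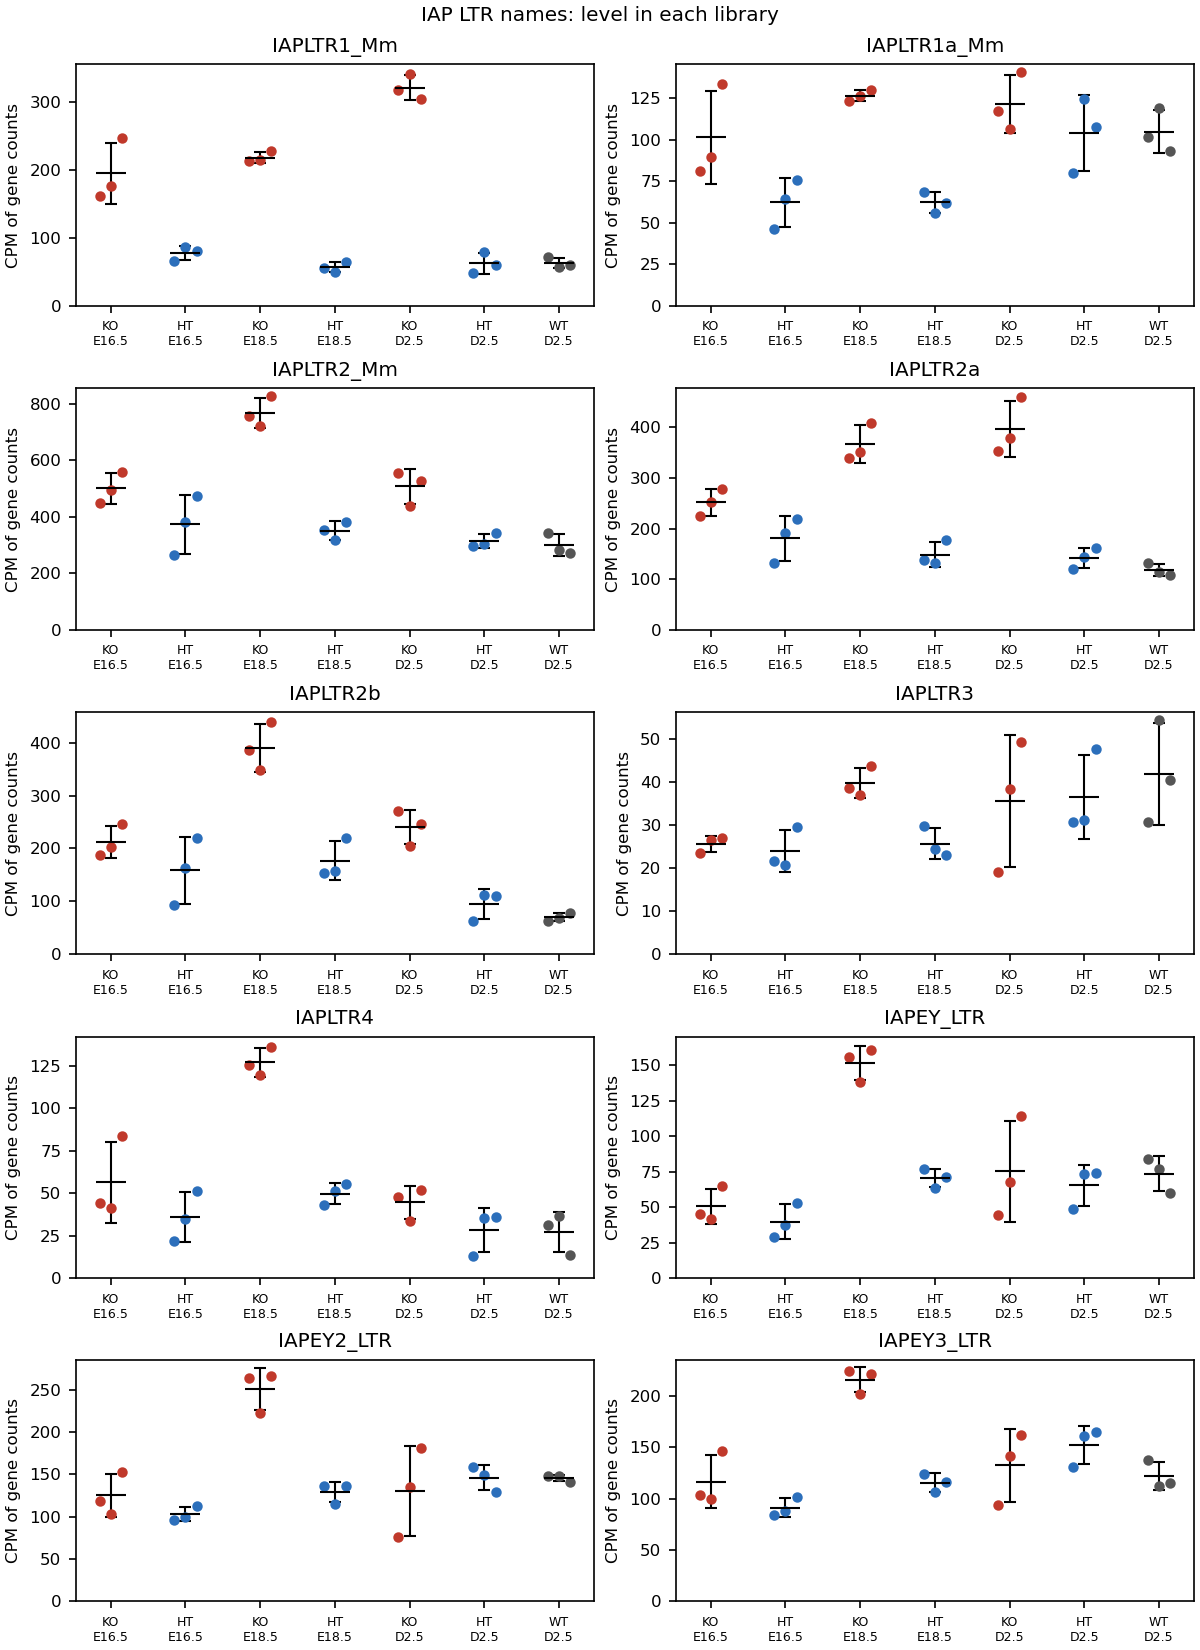
Level of each IAP LTR name in each library, in CPM of gene counts on a linear axis from 0, one panel per name. Points are libraries, the horizontal line is the mean and the bars are 1 SD (n = 3 per group). At E18.5 the KO points lie above the HT points in all 10 panels, and at D2.5 in 4.

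IAPLTR1_Mm was the name with the largest KO fold change of the 10 at every age. At E16.5 it had 162, 177 and 247 CPM in KO cells, against 66.5, 86.3 and 80.9 CPM in HT cells. By E18.5 it had 213, 215 and 228 CPM in KO cells, against 55.9, 50.2 and 64.8 CPM in HT cells. At D2.5 KO cells had 318, 341 and 305 CPM, HT cells 48.2, 79.7 and 59.6 CPM, and WT cells 71.7, 57.4 and 59.9 CPM. Every KO library exceeded every control library of its age. The E16.5 fold change was 2.53 (log2 1.34, edgeR adjusted p = 0.0857, SE 0.19) and the E18.5 one 3.83 (log2 1.94, edgeR adjusted p = 7.37e-23, SE 0.18). At D2.5 it was 5.12 over HT (log2 2.35, edgeR adjusted p = 3.04e-14, SE 0.28). Over WT cells it came to 5.10 (log2 2.35, edgeR adjusted p = 3.71e-14, SE 0.28).

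Among all repeat names the fold change of IAPLTR1_Mm ranked first at E16.5 (1 of 1090), while its E18.5 rank was 3 of 1125 and its D2.5 rank over HT 4 of 1110. At E16.5 its call depended on the libraries used. Without KO replicate 1 the log2 fold change was 1.46 (edgeR adjusted p = 0.0361) and without KO replicate 3 it was 1.13 (edgeR adjusted p = 0.0337). DESeq2 gave 1.34 with an adjusted p of 1.73e-07. In order of mean level the groups ran from KO at D2.5 (322 CPM, SD 18.3) over KO at E18.5 (219 CPM, SD 8.02) and KO at E16.5 (195 CPM, SD 45.0) down to HT at E16.5 (77.9 CPM, SD 10.2), WT at D2.5 (63.0 CPM, SD 7.65), HT at D2.5 (62.5 CPM, SD 15.9) and HT at E18.5 (57.0 CPM, SD 7.36), with n = 3 each. KO libraries at E18.5 and E16.5 overlapped with each other, and so did each pair of control groups other than HT at E16.5 and HT at E18.5.

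IAPLTR1a_Mm, the close relative of IAPLTR1_Mm by name, rose at E18.5 and did not pass after birth. At E16.5 it had 80.9, 89.8 and 134 CPM in KO cells, against 46.5, 64.5 and 75.8 CPM in HT cells. In E18.5 libraries it had 124, 126 and 130 CPM in KO cells, against 68.6, 56.1 and 62.2 CPM in HT cells. Both times the KO libraries lay above the HT libraries, and the log2 fold change was 0.71 (edgeR adjusted p = 0.584, SE 0.25) at E16.5 and 1.02 (edgeR adjusted p = 7.8e-07, SE 0.18) at E18.5. At D2.5 KO cells had 117, 106 and 141 CPM, HT cells 79.8, 125 and 108 CPM, and WT cells 102, 119 and 93.5 CPM. These ranges overlapped, and the log2 fold change was 0.22 (SE 0.28) over HT and 0.21 (SE 0.28) over WT, neither past the test.

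**Figure D2:**
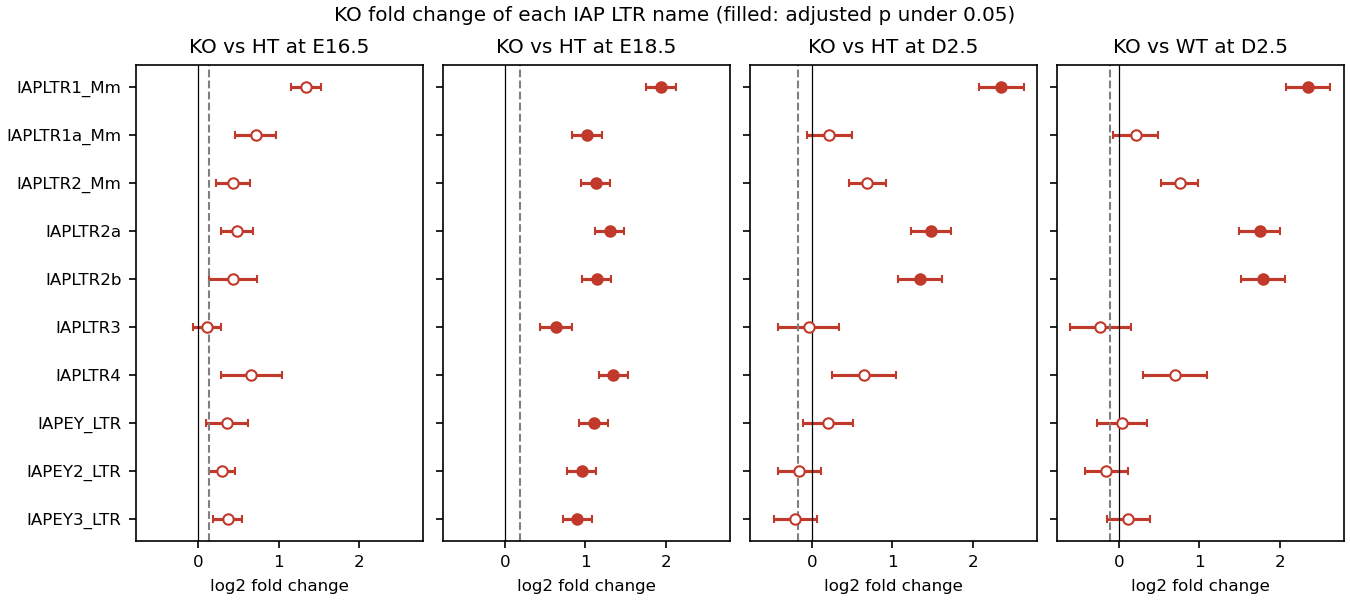
KO log2 fold change of each IAP LTR name with its SE, over HT at each age and over WT at D2.5. Filled points passed edgeR's test (0, 10, 3 and 3 of the 10 names), and the dashed line is the median of all repeat names tested. IAPLTR1_Mm has the point farthest to the right in each panel.

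The 3 IAPLTR2 names all rose at E18.5, and 2 of them also at D2.5. IAPLTR2_Mm had 450, 496 and 559 CPM in KO cells at E16.5, against 266, 383 and 473 CPM in HT cells. At E18.5 it had 757, 721 and 826 CPM in KO cells, against 354, 316 and 382 CPM in HT cells, and at D2.5 554, 439 and 527 CPM in KO, 296, 304 and 341 CPM in HT and 344, 284 and 272 CPM in WT cells. The groups overlapped at E16.5 and were apart at E18.5 and D2.5. The edgeR log2 fold change of IAPLTR2_Mm at E16.5 was 0.43 (adjusted p = 0.584, SE 0.21). It reached 1.13 (adjusted p = 1.01e-08, SE 0.18) at E18.5 in edgeR, and at D2.5 0.69 (adjusted p = 0.178, SE 0.23) over HT and 0.75 (adjusted p = 0.0743, SE 0.23) over WT. The D2.5 value over HT passed in DESeq2 (0.69, adjusted p = 0.0207) and with repeat totals as library size in edgeR (0.89, adjusted p = 0.00511). Over WT it passed in DESeq2 (0.76, adjusted p = 0.00496), with repeat totals (0.90, edgeR adjusted p = 0.00452) and without HT replicate 1 (0.76, edgeR adjusted p = 0.0417).

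IAPLTR2a kept its KO excess after birth. It had 225, 252 and 279 CPM in KO cells at E16.5, against 132, 191 and 219 CPM in HT cells. By E18.5 it had 340, 351 and 409 CPM in KO cells, against 138, 132 and 177 CPM in HT cells, and at D2.5 354, 379 and 459 CPM in KO, 121, 143 and 162 CPM in HT and 132, 114 and 108 CPM in WT cells. KO libraries were above control libraries at all 3 ages, with the narrowest gap at E16.5. In edgeR the log2 fold change was 0.48 (adjusted p = 0.584, SE 0.20), 1.30 (adjusted p = 2.45e-11, SE 0.18) and, at D2.5, 1.48 over HT (adjusted p = 9.99e-07, SE 0.25) and 1.75 over WT (adjusted p = 1.45e-09, SE 0.25).

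IAPLTR2b also rose in KO cells at E18.5 and D2.5. At E16.5 it had 188, 203 and 247 CPM in KO cells, against 92.8, 162 and 219 CPM in HT cells, which overlap. In E18.5 libraries it had 385, 348 and 439 CPM in KO cells, against 154, 157 and 219 CPM in HT cells. At D2.5 KO cells had 271, 205 and 246 CPM, HT cells 61.7, 112 and 109 CPM, and WT cells 62.0, 69.0 and 77.4 CPM. KO libraries were clear of the controls at both later ages. In edgeR the E16.5 log2 fold change was 0.43 (adjusted p = 0.584, SE 0.29) and that of E18.5 1.14 (adjusted p = 6.28e-09, SE 0.18), and at D2.5 it was 1.34 over HT (adjusted p = 0.000122, SE 0.27) and 1.79 over WT (adjusted p = 2.07e-08, SE 0.28).

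IAPLTR3 had the smallest KO fold change of the 10 before birth. At E16.5 it had 23.4, 26.6 and 26.9 CPM in KO cells, against 21.5, 20.6 and 29.6 CPM in HT cells, and the groups overlapped. At E18.5 it had 38.7, 36.9 and 43.7 CPM in KO cells, against 29.8, 24.4 and 22.9 CPM in HT cells, and at D2.5 19.09, 38.4 and 49.3 CPM in KO, 30.7, 31.2 and 47.8 CPM in HT and 30.7, 54.4 and 40.6 CPM in WT cells. At D2.5 the KO libraries spanned the HT range, and the highest level of all was in WT replicate 2. The log2 fold change at E18.5 was 0.63 (edgeR adjusted p = 0.0201, SE 0.20), and the call was lost on leaving out replicate 1 (0.65) or 3 (0.56) of the KO cells, or replicate 2 (0.58) or 3 (0.56) of the HT cells. It was 0.11 (SE 0.18) at E16.5, -0.04 (SE 0.38) over HT and -0.23 (SE 0.38) over WT at D2.5. The D2.5 sign turned without KO replicate 1 (0.27 over HT, 0.08 over WT), without HT replicate 3 (0.21 over HT) and without WT replicate 2 (0.02 over WT). With repeat totals as library size the sign turned at E16.5 (-0.02) and over HT at D2.5 (0.09).

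IAPLTR4 was among the names with the largest fold change at E18.5. It had 44.1, 41.5 and 83.9 CPM in KO cells at E16.5, against 21.8, 34.8 and 51.1 CPM in HT cells. By E18.5 it had 126, 119 and 136 CPM in KO cells, against 42.8, 51.2 and 55.4 CPM in HT cells, and at D2.5 48.1, 33.7 and 52.1 CPM in KO, 13.1, 35.7 and 35.7 CPM in HT and 31.2, 36.6 and 13.9 CPM in WT cells. The groups were apart at E18.5 and overlapped at the other ages. The log2 fold change was 1.35 at E18.5 (edgeR adjusted p = 2.45e-11, SE 0.18), 0.66 (SE 0.38) at E16.5, 0.65 (SE 0.40) over HT and 0.70 (SE 0.40) over WT at D2.5, the last 3 not past the test.

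The 3 IAPEY names rose at E18.5 and did not pass at the other ages. IAPEY_LTR had 45.5, 41.6 and 64.9 CPM in KO cells at E16.5, against 29.1, 37.3 and 53.0 CPM in HT cells. In E18.5 libraries it had 156, 139 and 161 CPM in KO cells, against 76.7, 63.7 and 71.2 CPM in HT cells, and at D2.5 44.3, 67.8 and 114 CPM in KO, 49.0, 73.3 and 74.1 CPM in HT and 84.2, 76.7 and 59.9 CPM in WT cells. Groups overlapped except at E18.5. In order of age the log2 fold change was 0.36 (SE 0.27), then 1.10 (edgeR adjusted p = 4.89e-08, SE 0.18), and at D2.5 0.20 over HT (SE 0.31) and 0.04 over WT (SE 0.31). Without KO replicate 3 the D2.5 values were -0.23 and -0.40, and without WT replicate 3 the value over WT was -0.11.

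IAPEY2_LTR had 119, 103 and 153 CPM in KO cells at E16.5, against 96.0, 99.9 and 112 CPM in HT cells. At E18.5 it had 264, 222 and 266 CPM in KO cells, against 137, 115 and 136 CPM in HT cells, and at D2.5 75.6, 135 and 181 CPM in KO, 159, 150 and 130 CPM in HT and 148, 148 and 141 CPM in WT cells. After birth KO replicate 1 was the lowest and KO replicate 3 the highest of the 9 libraries. By age, the log2 fold changes were 0.29 (SE 0.16) and 0.95 (edgeR adjusted p = 2.33e-06, SE 0.18), and at D2.5 -0.16 over HT (SE 0.27) and -0.16 over WT (SE 0.27). Without KO replicate 1 the D2.5 values turned positive, to 0.12 over HT and 0.13 over WT.

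IAPEY3_LTR had 104, 100.1 and 146 CPM in KO cells at E16.5, against 84.1, 88.2 and 101 CPM in HT cells. By E18.5 it had 224, 202 and 222 CPM in KO cells, against 124, 106 and 116 CPM in HT cells, and at D2.5 93.5, 142 and 162 CPM in KO, 131, 161 and 165 CPM in HT and 138, 113 and 115 CPM in WT cells. Groups were apart at E18.5 only. Its log2 fold changes by age were 0.37 (SE 0.18) and 0.90 (edgeR adjusted p = 1.25e-05, SE 0.18), and at D2.5 -0.20 over HT (SE 0.27) and 0.12 over WT (SE 0.27). Without KO replicate 1 the value over HT was 0.00, and without KO replicate 3 that over WT was -0.05.

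**Figure D3:**
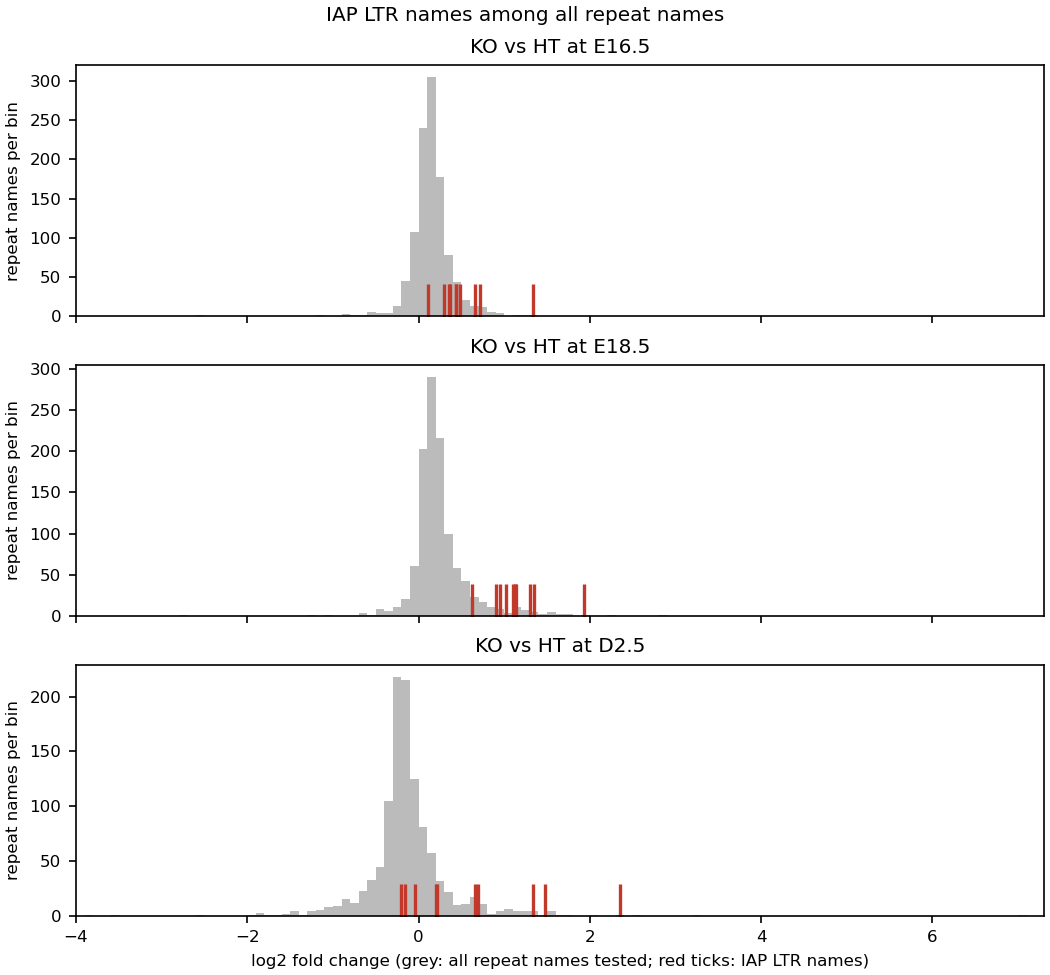
Histograms of the KO over HT log2 fold change of all repeat names tested at each age (grey, 1090, 1125 and 1110 names in order of age), with the 10 IAP LTR names as red ticks. The ticks lie right of the median of all names except at E16.5 for IAPLTR3 and at D2.5 for IAPEY3_LTR.

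The change of the KO effect between ages was tested in 1 fit of the 18 HT and KO libraries. From E16.5 to E18.5 the log2 KO effect was larger for all 10 names, by 0.32 to 0.83 (median 0.69, against 0.09 over all 1144 names), and none of the 10 passed, where 0.175% of all names did (edgeR). An unadjusted p under 0.05 was reached by 6 of the 10 and by 28 of the 1144 names in edgeR. Without HT replicate 1 at E16.5, IAPLTR2a (0.98, edgeR adjusted p = 0.0374) and IAPLTR2_Mm (0.87, edgeR adjusted p = 0.0473) passed.

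From E18.5 to D2.5 the KO effect of IAPEY2_LTR and IAPEY3_LTR fell, which makes 2 of the 10 names, where 1.75% of all names were called lower. The difference of the log2 effects was -1.12 for IAPEY2_LTR (edgeR adjusted p = 0.0451, SE 0.30) and -1.10 for IAPEY3_LTR (edgeR adjusted p = 0.0318, SE 0.27). Without KO replicate 1 at D2.5 they were -0.85 (edgeR adjusted p = 0.0932) and -0.91 (edgeR adjusted p = 0.0673), and neither passed with RLE factors, repeat totals or genes and names in 1 fit. Both calls were also lost on leaving out HT replicate 2 or 3 at D2.5 or HT replicate 2 or 3 or KO replicate 1 or 3 at E18.5, at -1.20 to -1.04. The call of IAPEY2_LTR was lost as well without KO replicate 2 at D2.5 (-1.14), KO replicate 1 at E16.5 (-1.12) or HT replicate 1 at E18.5 (-1.15). The median of the 10 was -0.68, against -0.36 over all names, and the differences of IAPLTR1_Mm (0.42, SE 0.27), IAPLTR2b (0.20, SE 0.33) and IAPLTR2a (0.18, SE 0.26) were above 0 and did not pass.

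The ages were also compared within a genotype. Each age has a table of its own, so age and table cannot be told apart. From E16.5 to E18.5 KO cells gained 7 of the 10 names, where 29.4% of all names were called higher (edgeR), led by IAPEY_LTR with a log2 fold change of 1.58 (edgeR adjusted p = 0.000202, SE 0.26). With repeat totals as library size 3 of the 10 were called and 8 lay above 0, where 8.65% of all names were called in either direction. The count of 7 became 1 to 6 on leaving out any 1 of the 18 libraries, where 0.699% to 20.4% of all names were called in either direction. It was 3 without KO replicate 1 at E16.5 (6.12% of all names) and 1 without KO replicate 2 at E16.5 (0.699%). It was 4 without KO replicate 1 at E18.5 (5.97%) and 3 without KO replicate 3 at E18.5 (4.13%). In HT cells IAPEY_LTR alone passed for that step (0.82, edgeR adjusted p = 0.0479, SE 0.26), where 6.64% of all names were called higher, and this call was lost on leaving out any of 15 of the 18 libraries, with 0.58 as the lowest value.

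From E18.5 to D2.5 the median of all names rose by 1.00 on the log2 scale in KO cells, with 70.3% of names called higher and 6.21% called lower (edgeR). Of the LTR names 6 fell, from IAPLTR2_Mm at -0.60 (SE 0.17) to IAPLTR4 at -1.51 (edgeR adjusted p = 5.22e-05, SE 0.31). IAPLTR1_Mm alone rose, by 0.56 (edgeR adjusted p = 0.00844, SE 0.19). In HT cells the median of all names was 1.36, with 79.1% called higher and 3.06% lower (edgeR). There IAPLTR1a_Mm rose by 0.75 (edgeR adjusted p = 0.00192, SE 0.21), while IAPLTR2b (-0.90, edgeR adjusted p = 0.00088, SE 0.24) and IAPLTR4 (-0.82, edgeR adjusted p = 0.0151, SE 0.31) fell. These directions depend on the scale. With repeat totals as library size the median of all names was within 0.01 of 0 in KO and HT cells, the IAPLTR1_Mm value in KO cells turned to -0.40 and the IAPLTR1a_Mm value in HT cells to -0.63, and in HT cells all 10 names were called lower, where 53.8% of all names were called in either direction. The count of 3 names in HT cells became 5 on leaving out any of 12 of the 18 libraries. Over all 18 such fits 79.9% to 85.7% of all names were called in either direction.

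The mix of LTR names was described by ratios within a library, which need no scaling. IAPLTR1_Mm made up 11.9% of the IAP LTR counts in KO cells (SD 0.765, n = 3), against 6.96% in HT cells (SD 1.09, n = 3), at E16.5. At E18.5 its share was 8.25% in KO cells, against 4.80% in HT cells, and at D2.5 16.2% in KO, 5.43% in HT and 5.91% in WT cells. The share of IAPEY2_LTR was lower in KO cells at D2.5, with 6.41% in KO, 13.0% in HT and 13.7% in WT cells. Its own level gave no call there (log2 -0.16 over HT, SE 0.27), and a share falls when other names rise. IAPEY3_LTR (6.56% in KO, 13.3% in HT cells), IAPEY_LTR (3.68%, 5.66%), IAPLTR1a_Mm (6.04%, 9.03%) and IAPLTR3 (1.75%, 3.18%) also had lower shares. Those of IAPLTR2a (19.8%, 12.4%) and IAPLTR2b (12.0%, 8.12%) were higher. IAPLTR2_Mm had the largest share in every group, between 25.4% (KO at D2.5) and 32.4% (HT at E16.5).

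**Figure D4:**
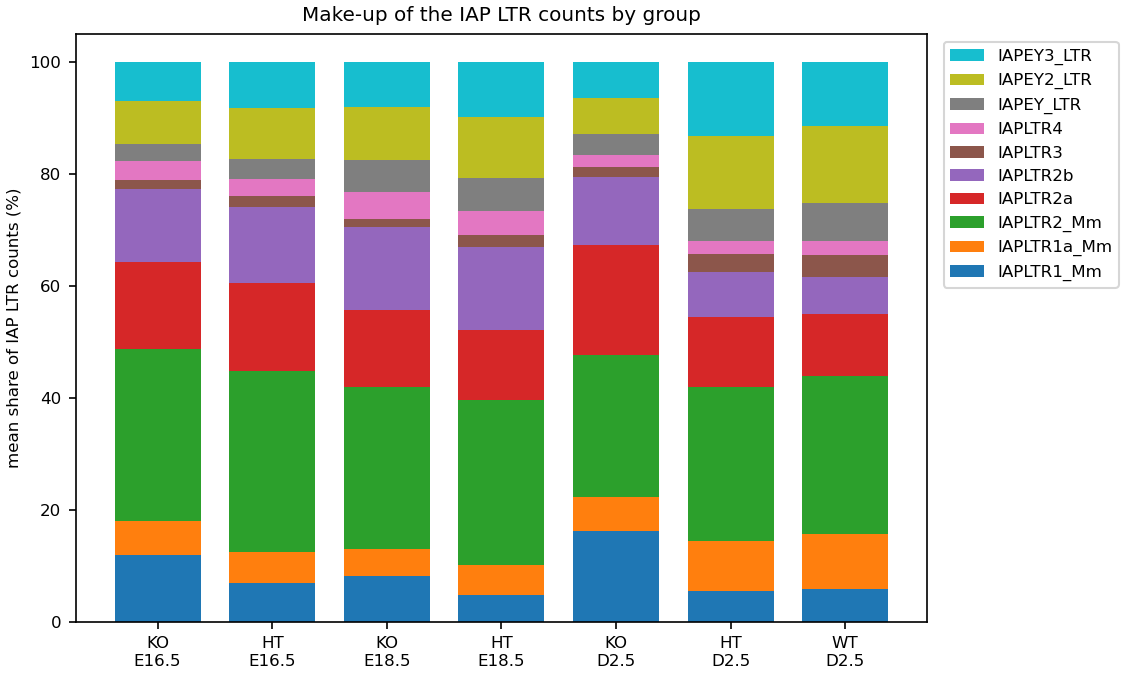
Mean share of each name in the IAP LTR counts of a group, in percent of the counts of the 10 names, as stacked bars (n = 3 libraries per group). The lowest segment, IAPLTR1_Mm, is 16.2% in KO cells at D2.5, against 5.43% in HT and 5.91% in WT cells.

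The IAPLTR1_Mm count per IAPLTR1a_Mm count separated the genotypes at each age. It was 1.85 to 2.01 in KO and 1.07 to 1.43 in HT cells at E16.5, and 1.70 to 1.75 in KO and 0.816 to 1.04 in HT cells at E18.5. At D2.5 it was 2.17 to 3.21 in KO, 0.553 to 0.639 in HT and 0.482 to 0.704 in WT cells. KO and control libraries did not overlap at any age. With 3 libraries against 3, the two-sided exact permutation test cannot go below p = 0.1, the value it gave here at each age (0.15 after adjustment over 33 tests of 11 ratios at 3 ages, of which 22 had no overlap between KO and HT). All pairs of names in ratios, here and below, were chosen after their values were seen, and several share a name. The lack of overlap and the p therefore describe these pairs and do not test them. Ratios of other repeat names were not made for comparison.

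**Figure D5:**
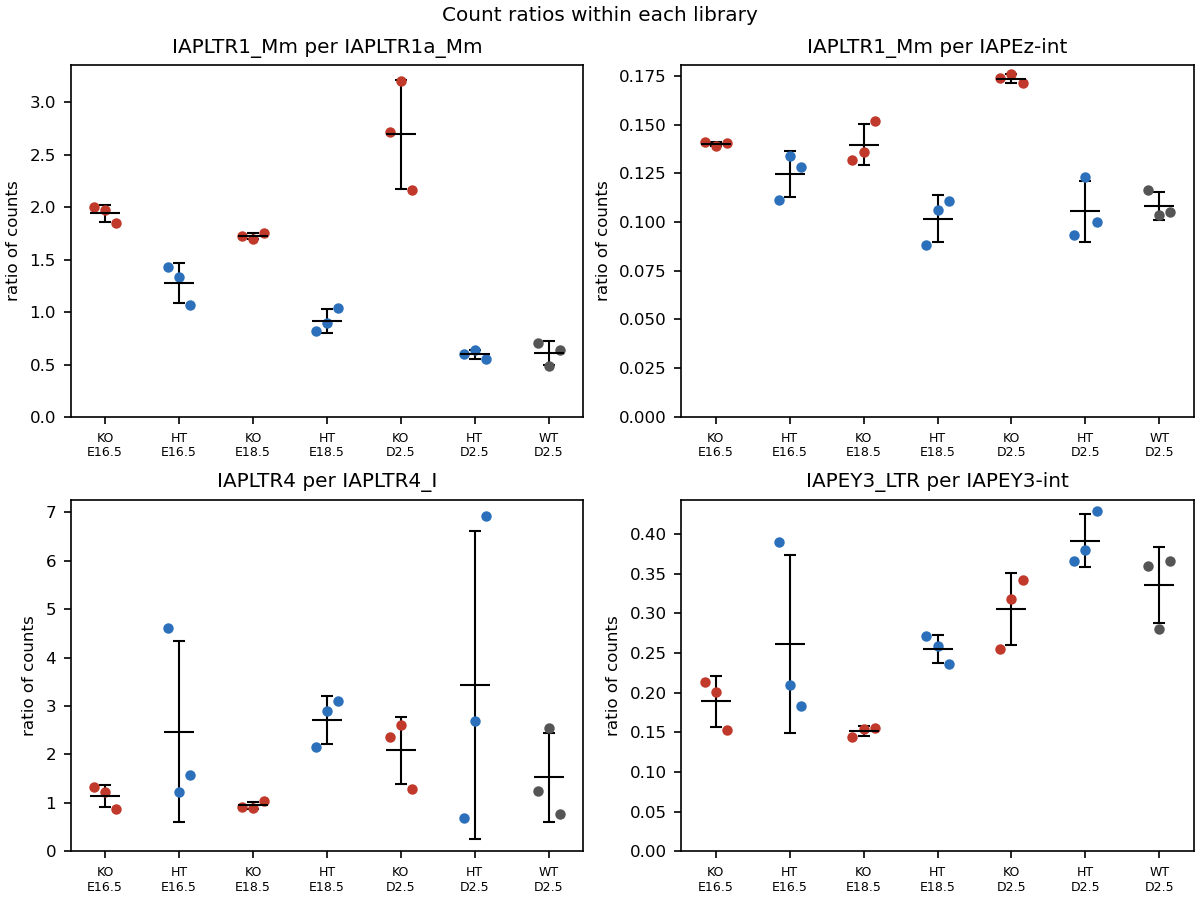
Count ratios within each library for 4 pairs of names, with points for libraries, a line for the mean and bars of 1 SD (n = 3 per group), on axes from 0. IAPLTR1_Mm per IAPLTR1a_Mm and per IAPEz-int is higher in KO cells at all 3 ages, while IAPLTR4 and IAPEY3_LTR per internal count are lower in KO cells at E18.5.

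LTR names were also set against internal names in ratios. IAPLTR1_Mm per IAPEz-int count was 0.139 to 0.141 in KO and 0.111 to 0.134 in HT cells at E16.5, 0.132 to 0.152 in KO and 0.0882 to 0.111 in HT cells at E18.5, and 0.171 to 0.176 in KO, 0.0934 to 0.123 in HT and 0.103 to 0.116 in WT cells at D2.5. KO libraries were above at all 3 ages. IAPLTR2_Mm per IAPEz-int count stood the other way round. It was 0.318 to 0.391 in KO and 0.445 to 0.750 in HT cells at E16.5, 0.456 to 0.550 in KO and 0.558 to 0.668 in HT cells at E18.5, and 0.226 to 0.303 in KO, 0.470 to 0.573 in HT and 0.477 to 0.557 in WT cells at D2.5. KO libraries were below at all 3 ages, again with the smallest exact permutation p of 0.1. For the 3 pairs with matching names that were put in ratios, the KO libraries were also below at E18.5. IAPLTR3 per IAPLTR3-int count was 0.0602 to 0.0693 in KO and 0.0816 to 0.117 in HT cells, IAPLTR4 per IAPLTR4_I count 0.898 to 1.03 in KO and 2.15 to 3.09 in HT cells, and IAPEY3_LTR per IAPEY3-int count 0.145 to 0.156 in KO and 0.237 to 0.272 in HT cells. No library overlapped between the genotypes in these 3 pairs, each with the smallest exact permutation p of 0.1. IAPEY3_LTR per IAPEY3-int count was also lower in KO cells at D2.5, at 0.255 to 0.342, against 0.366 to 0.429 in HT cells, while WT cells at 0.280 to 0.367 overlapped with KO cells.

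The internal names of these 3 matching pairs had larger KO fold changes at E18.5 than their LTR names, while IAPEz-int (1.47, edgeR adjusted p = 6.98e-14, SE 0.18) lay between IAPLTR1_Mm (1.94) and IAPLTR2_Mm (1.13). IAPLTR4_I had a log2 fold change of 2.86 (edgeR adjusted p = 7.69e-43, SE 0.20), against 1.35 for IAPLTR4, and IAPEY3-int 1.65 (edgeR adjusted p = 2.86e-17, SE 0.18), against 0.90 for IAPEY3_LTR. IAPEY_LTR and IAPEy-int, a further pair of like names that was not put in ratios, went the other way. IAPEY_LTR had 1.10, against 0.79 for IAPEy-int (edgeR adjusted p = 0.000163, SE 0.18). At D2.5 IAPEz-int was the internal name that rose, by 1.65 over HT (edgeR adjusted p = 4.14e-11, SE 0.22). Counts of all 10 LTR names per count of the 6 internal names were 0.411 to 0.473 in KO and 0.506 to 0.542 in HT cells at E16.5, overlapped at E18.5 (0.453 to 0.509 in KO, 0.483 to 0.544 in HT cells), and were 0.449 to 0.491 in KO, 0.412 to 0.431 in HT and 0.389 to 0.406 in WT cells at D2.5. KO cells were thus below HT cells at E16.5 and above HT and WT cells at D2.5.

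The names also differed in how they moved together over the 21 libraries, described here by Pearson's r of log2(CPM + 1). IAPLTR1_Mm and IAPLTR2a were the closest pair (r = 0.94), and IAPEY_LTR and IAPEY3_LTR followed (r = 0.91). IAPLTR2b and IAPLTR3 were the least alike (r = -0.06). These libraries share genotypes and ages, so r reflects the groups as well. Outside the 10 names, the summed IAP LTR level was most like RLTR1B-int (r = 0.95), MMERGLN-int (0.92), RLTR4_MM-int (0.90), L1Md_Gf (0.89) and IAPEz-int (0.89) among 1140 repeat names. RLTR1B-int, an internal sequence of another endogenous retrovirus, averaged 1644 CPM in KO cells at E18.5 (SD 87.8, n = 3), against 677 CPM in HT cells (SD 15.2, n = 3).

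Genes with a mean of at least 1 CPM over the 21 libraries were compared as well, 16922 in all. The most alike were the olfactory receptor genes Olfr559 (r = 0.93) and Olfr1504 (0.92), Plac8l1 (0.90), 1 predicted gene model and the vomeronasal receptor gene Vmn2r78 (0.88). The levels of these genes were low. Olfr559 and Olfr1504 averaged at most 0.28 and 0.22 CPM in any control group, so they passed the filter through KO cells. Their r therefore does not test a link with the LTR level. Plac8l1 averaged 17.1 CPM in KO cells at E18.5 (SD 0.76, n = 3), against 1.36 CPM in HT cells (SD 0.40, n = 3), and Olfr559 3.99 CPM in KO cells (SD 1.28, n = 3), against 0.28 CPM in HT cells (SD 0.18, n = 3).

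Transcripts of known repressors of retroelements were tested beside the LTRs. Of 47 measured genes of the piRNA pathway (18), DNA methylation (6), H3K9 methylation and KRAB repression (17) and RNA restriction (6), 1 of them under the filter at D2.5, 0 passed in KO against HT cells at E16.5, where 0.00618% of all genes did, 2 at E18.5 (2.14% of all genes) and 0 at D2.5 (0.153% of all genes), all by edgeR. At E16.5 and D2.5 limma-voom called 0 and 1 and DESeq2 0 and 1 of them. Gtsf1, whose protein is needed for piRNA-guided silencing, fell at E18.5 to 44.5 CPM in KO cells (SD 4.81, n = 3), against 98.7 CPM in HT cells (SD 9.15, n = 3), a log2 fold change of -1.15 (edgeR adjusted p = 0.000554, SE 0.15). Cbx5, which encodes the heterochromatin protein HP1 alpha, rose by 0.60 at E18.5 (edgeR adjusted p = 0.0490, SE 0.15), a call lost on leaving out any of the 6 libraries (0.49 to 0.65) and with RLE factors, a stricter filter or a robust prior.

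In the lists without a call, the genes of lowest p were as follows. For DNA methylation these were Uhrf1, the partner of the maintenance methyltransferase, at 0.39 (SE 0.26) at D2.5, and Hells, a chromatin remodeller, at -0.59 (SE 0.40) at E16.5. For RNA restriction they were Mov10, an RNA helicase, at -0.74 (SE 0.42) at D2.5, and Apobec3, a cytidine deaminase, at -0.74 (SE 0.42) at E18.5. Suv39h2, an H3K9 methyltransferase singled out after its values were seen, had 339 CPM in KO cells at D2.5 (SD 20.3, n = 3), against 179 CPM in HT cells (SD 17.4, n = 3), a log2 fold change of 0.92 (edgeR adjusted p = 0.0529, SE 0.19), which passed in DESeq2 and limma-voom.

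No list of cell type markers had a call at E16.5, and the sums of each list overlapped between KO and HT cells. Germ cell markers summed to 1518 to 2852 CPM in KO and 1805 to 5943 CPM in HT cells. Leydig and stromal markers summed to 83.9 to 127 CPM in KO and 38.9 to 123 CPM in HT cells. The germ cell marker Dppa3 had 906, 808 and 123 CPM in KO and 3144, 1027 and 269 CPM in HT cells. Of the markers of other cells, part of the endothelial and macrophage list moved with genotype at E18.5. The Sertoli sums overlapped (33.1 to 55.4 CPM in KO, 35.6 to 45.4 CPM in HT cells). So did the Leydig and stromal sums (206 to 231 CPM in KO, 190 to 230 CPM in HT cells), and neither list had a call. The summed level of 10 endothelial and macrophage markers was 166 to 214 CPM in KO cells, against 120 to 140 CPM in HT cells, none of the 10 was at 0, and 3 rose, the macrophage genes Mrc1 (1.82, edgeR adjusted p = 6.27e-05) and Adgre1 (1.43, edgeR adjusted p = 0.00883) and the endothelial gene Tek (0.87, edgeR adjusted p = 0.0166). The other 7 did not pass. Of these, Ptprc alone was higher in every KO than in every HT library (3.34 to 4.04 against 2.36 to 2.69 CPM). The ranges of Pecam1, Cdh5, Kdr, Csf1r, Cd68 and Tyrobp overlapped. The 8 germ cell markers summed to 1251 to 1276 CPM in KO cells, against 1352 to 1479 CPM in HT cells, with Pou5f1 lower in KO cells (-0.81, edgeR adjusted p = 0.0307). At D2.5 the 10 Leydig and stromal markers summed to 276 to 779 CPM in KO, 214 to 310 CPM in HT and 192 to 453 CPM in WT cells. Of the 9 tested, 0 were called over HT. Col1a1 had 65.9 to 169 CPM in KO, 77.7 to 103 CPM in HT and 72.6 to 142 CPM in WT cells. Col1a2 had 72.7 to 198, 26.5 to 53.3 and 30.7 to 91.2 CPM, and Col3a1 73.1 to 257, 39.0 to 90.0 and 25.3 to 160 CPM. Insl3, which defines Leydig cells, and the macrophage gene Tyrobp were at 0 in all 9 libraries. Each was the 1 gene of its list at 0 throughout a group. The Leydig gene Hsd3b1 had 0, 23.0 and 11.6 CPM in KO, 0, 0 and 0.34 CPM in HT and 0, 0.37 and 2.74 CPM in WT cells. Cyp11a1 (0.18, 1.30 and 2.22 CPM in KO, 0, 0 and 4.64 CPM in HT cells) and Cyp17a1 (0, 2.97 and 0 CPM in KO, 1.63, 7.16 and 0.17 CPM in HT cells) had their highest level outside KO cells. Star had 12.2 to 30.7 CPM, and the macrophage genes Mrc1 25.2 to 67.4 CPM and Cd68 9.18 to 42.3 CPM. The 8 Sertoli markers summed to 34.8 to 174 CPM in KO, 41.4 to 60.4 CPM in HT and 27.5 to 97.4 CPM in WT cells at D2.5. The part of such cells in the LTR levels was not tested.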

How the data were processed

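RNA from sorted cells was isolated with a PicoPure kit and amplified with NuGEN Ovation kits, per the labels. The deposited values are whole-number counts of reads, made by the authors, in 24495 rows for genes and 1217 for repeat names. The submitters' processing notes name STAR, Bowtie, featureCounts, edgeR and mm9. Their roles and versions, strand use and the treatment of reads that match many copies are not given in the sources used, and reads shared by near-identical LTRs may be split or assigned to either name. The authors' repeat family tables were not used. Here, names that reached 10 reads in 3 or more libraries were tested with edgeR 4.0.16 (R 4.3.3, limma 3.58.1), two-sided, with library sizes and TMM factors from genes, Benjamini-Hochberg adjustment over all names and a threshold of 0.05. The SE is the log2 fold change divided by the square root of F. Prior degrees of freedom were infinite at E18.5 and D2.5, so SE and p there take the spread shared by names of like abundance. The E16.5 fit and the E18.5 fit used 6 libraries each, the D2.5 fit 9, and that for differences between ages 18. Genes were kept by filterByExpr (minimum count 10). Printed CPM use TMM factors over all 21 libraries. Exact tests used scipy 1.17.1 and figures matplotlib 3.10.9 (Python 3.11.15), and the fits were tested on simulated data.

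Each name is described in every library if its mean is at least 100 counts, which held for all 10. Repressor genes are named if they passed, otherwise the 2 of lowest p in their list. The names and genes most like the summed level are the 5 with the highest r. Members, lists and rules were chosen with earlier results of these data known, and the pairs of names in ratios after their values were seen. Alternatives were RLE factors, repeat totals as library size, no filter, a minimum of 50 reads, DESeq2 1.42.0, limma-voom, a robust prior, genes and names in 1 fit, a replicate block and leaving out each library. Spocd1, a further gene of the piRNA list, was not analysed here. Libraries of a group differed by more than sampling noise in every pair.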

Additional observations from a re-analysis of the deposited data

Results flagged for a closer look

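The KO effect of 2 IAP LTR names differed between E18.5 and D2.5 by the test of the difference itself. In that test 1.75% of all names were called lower, and the median difference over all names was -0.36. For IAPEY2_LTR the log2 KO over HT effect at D2.5 minus that at E18.5 was -1.12 (SE 0.30, edgeR adjusted p = 0.0451), and for IAPEY3_LTR -1.10 (SE 0.27, edgeR adjusted p = 0.0318). KO replicate 1 had the lowest KO level of both names at D2.5 (75.6 and 93.5 CPM). Without that library the differences were -0.85 and -0.91 and no longer passed. Of the 18 fits that each left out 1 library, the call of IAPEY2_LTR was lost in 10 and that of IAPEY3_LTR in 7. Neither name passed with RLE factors, repeat totals or genes and names in 1 fit.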

How the results depend on the processing

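Counts of IAP LTR names called in KO over HT cells were 9 to 10 at E18.5 and 3 to 4 at D2.5 under every alternative, 3 to 4 over WT, and 0 for HT over WT, in each case with the direction kept for every name that passed. The share of all names called in either direction varied more. It was 5.64% to 24.4% at E18.5, 0.903% to 3.33% over HT and 0.905% to 4.68% over WT at D2.5. For genes and names in 1 fit it was 2.49%, 0.22% and 0.291% of both. For HT over WT it was 0%, or 0.00646% in that joint fit. At E16.5 the count of 0 became 1 in DESeq2 (0.183% of all names) and 3 with a replicate block (3.58%). The count of 2 for the KO effect at D2.5 minus E18.5 became 0 with RLE factors (0.437%), repeat totals (0.175%) or genes and names in 1 fit (0.0601%). From E16.5 to E18.5 the count in KO cells became 3 with repeat totals (8.65%) and 4 with genes and names in 1 fit (5.27%). In HT cells it became 0 with genes and names in 1 fit (12.8%). From E18.5 to D2.5 the count in HT cells became 10 with repeat totals (53.8%). Causes were not tested. Called repressor genes were 1 at E18.5 with RLE factors, the stricter filter or the robust prior, and 1 at D2.5 with no filter, the stricter filter, DESeq2, limma-voom or the robust prior.

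With repeat totals the sign turned for IAPLTR3 at E16.5 (-0.020) and over HT at D2.5 (0.092), and from E18.5 to D2.5 for IAPLTR1_Mm in KO cells (-0.40) and IAPLTR1a_Mm in HT cells (-0.63). IAPEY_LTR over WT was -0.060 in limma-voom and -0.071 with the replicate block. Leaving out each library gave counts of 0 to 1 at E16.5, 0 to 2 for the KO effect at E18.5 minus E16.5, 0 to 3 at D2.5 minus E18.5, 1 to 6 in KO and 0 to 1 in HT cells from E16.5 to E18.5, 2 to 5 in HT cells from E18.5 to D2.5, and 1 to 2 repressor genes at E18.5. At D2.5 it gave over HT -0.35 to 0.27 for IAPLTR3, -0.23 to 0.48 for IAPEY_LTR, -0.48 to 0.12 for IAPEY2_LTR and -0.38 to 0.0016 for IAPEY3_LTR, and over WT -0.54 to 0.078, -0.40 to 0.32, -0.47 to 0.13 and -0.051 to 0.33. The share of all names called also varied. It was 0% to 0.185% at E16.5, 0% to 1.14% for the KO effect at E18.5 minus E16.5 and 0.263% to 5.07% at D2.5 minus E18.5. From E16.5 to E18.5 it was 0.699% to 20.4% in KO cells and 0.0874% to 9.54% in HT cells. In HT cells from E18.5 to D2.5 that share was 79.9% to 85.7%.

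No label used here pairs libraries with the same replicate number, and whether they share a litter or batch is not known. Their deviations correlated at 0.63, -0.07 and 0.78 at E16.5, where HT replicate 2 was most like KO replicate 3, and at 0.25, 0.16 and 0.10 at E18.5. The block added calls at E16.5 for IAPLTR1_Mm (1.32), IAPLTR1a_Mm (0.71) and IAPLTR2a (0.51). Over all names it raised the share called from 0% to 3.58% at E16.5 and from 10% to 18.7% at E18.5. With 3 libraries per group, small changes of names with few counts, such as IAPLTR3, cannot be resolved.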
